A study of Rattus norvegicus with 20 samples.

Results

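Female rats that had infantile spasms and were treated with ACTH (condition BYA) were set against saline control rats (condition SNS), gene by gene, in the arcuate nucleus of the hypothalamus at postnatal day 15. The comparison took 8 of the 20 samples of the series, chosen by the condition letters in the sample titles, 4 BYA and 4 SNS, each sample being 1 rat and 1 colour channel of a 2-colour microarray. The dams of the BYA rats had received betamethasone, a synthetic glucocorticoid, at 0.4 mg/kg in 2 injections on gestational day 15. Their pups then got NMDA, a glutamate receptor agonist that triggers the spasms, on postnatal days 12, 13 and 15, and ACTH on days 13 to 15 according to the sample labels. The methods of the study place the first ACTH dose on the first NMDA day. The SNS rats came from saline-injected dams, were given saline after birth, had no NMDA and no spasms, and stand for the normal level. Between them lie the rats with spasms given saline in place of ACTH (BYS) and the betamethasone-primed rats with no spasms (BNS), used below only to place BYA. BYA and SNS therefore differ in 3 things at once, the prenatal betamethasone, the NMDA spasms and the ACTH, and the comparison cannot tell them apart. All rats were Sprague Dawley females from litters culled to 4 females, and which rats were littermates was not given in the sources used here.

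ACTH is released by the pituitary, drives the adrenal cortex to make glucocorticoids through the receptor Mc2r, and also acts on melanocortin receptors of the brain such as Mc3r and Mc4r. It is a standard treatment of infantile spasms. The arcuate nucleus holds the neurons that make proopiomelanocortin (Pomc), the precursor of ACTH itself, and those that make Agrp and Npy. Glucocorticoids act through Nr3c1 and Nr3c2 and switch on genes such as Fkbp5, Klf9 and Tsc22d3, while strong neuronal firing switches on immediate early genes such as Fos and Egr1 within minutes to hours. Both kinds of gene can therefore be read beside the treatment and the seizures.

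A BYA sample of uncertain identity bears on everything that follows. BYA replicates 3 and 4 each shared an array with a male rat of another series, of condition SNS by the letters of the array's raw data name. For replicate 3 the order in which the array's raw data name lists the pair of rats disagreed with the dye on its label. If the dye on the label is wrong, its values are those of the male SNS rat. Results are therefore given with and without it. Sry, the 1 Y-linked gene measured, was at 7.52 to 7.83 in SNS and 7.77 to 8.02 in BYA, the highest value being that of replicate 3. It was well above background in 1 sample of each condition, and does not settle the matter. The SNS samples lay on 1 slide and the BYA samples on 2 others, replicate 3 alone on the second. The effect of the slide and that of the condition cannot be told apart. The 10 spike-in control RNAs read 1.28 to 1.85 lower in BYA than in SNS on the log2 scale, 0.87 to 1.45 lower in BYS and 0.42 to 1.07 lower in BNS. Their SD among the SNS samples was 0.33 to 1.84. The median signal over background was 6.94 in SNS, 7.42 in BYA, 16 in BYS and 16 in BNS. Their part in the differences from SNS was not tested. The distance of 2 samples was taken as the root mean square difference over genes. A sample's mean distance from the SNS samples was 0.48 to 0.573 for BYA, with replicate 3 the closest, 0.49 to 0.511 for BYS and 0.483 to 0.536 for BNS. It was 0.36 to 0.399 among the SNS samples themselves.

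Both rises and falls from the control level were widespread in the ACTH-treated rats. Of 17072 genes tested, 5838 differed between BYA and SNS at an adjusted p under 0.05 (34.2%), 2511 higher in BYA (14.7%) and 3327 lower (19.5%). The median difference over all genes was -0.07 on the log2 scale. Large differences were mostly upward, since 367 called genes were higher by at least 1 and 61 were lower by at least 1. The 4 BYA and 4 SNS values did not overlap for 4736 of the 16491 genes with all 8 values (28.7%). Without BYA replicate 3, 5719 genes were called (33.5%), of which 5214 were also called with it, each in the same direction. A further 624 genes were called only with replicate 3 and 505 only without it.

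A gene whose difference misses the threshold has not thereby been shown to sit at the control level. A gene was therefore called near when the whole 95% confidence interval of BYA minus SNS lay within 0.5 of 0 on the log2 scale, and far when the whole interval lay beyond 0.5. By this measure 6651 genes were near (39%), 688 were far above SNS, 123 were far below, and 9610 were neither. Of the called genes, 350 were also near, so that they differed by little but with a small error. Without replicate 3, 5817 genes were near and 5555 of these were near in both fits. Without it the far genes numbered 702 above and 350 below SNS, so the count far below changed most with that sample. Dim genes were near more often. In the dimmest of 5 equal groups by level 62.8% were near, against 28.9% in the brightest.

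**Figure D1:**
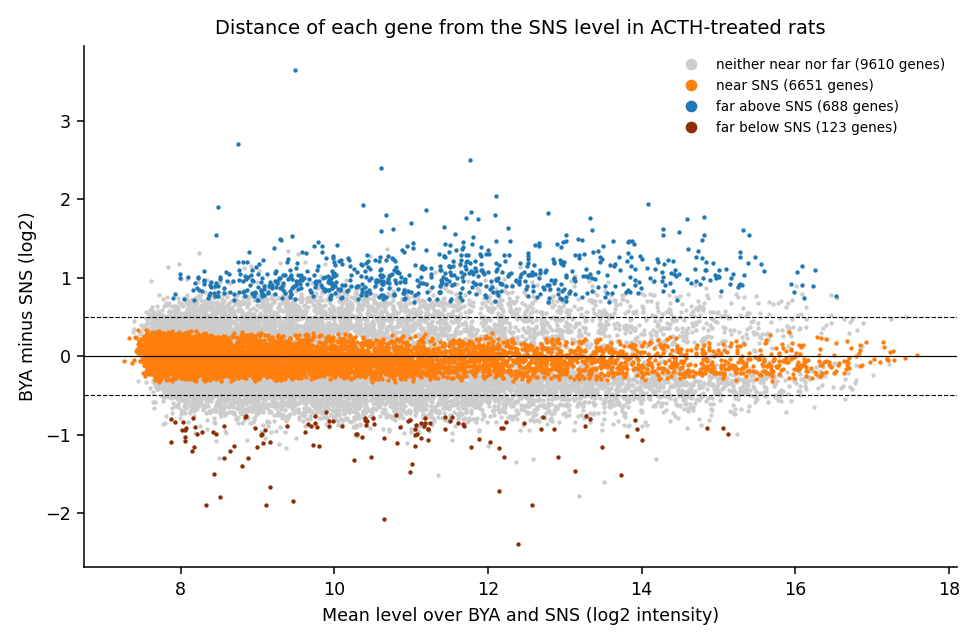
Difference BYA minus SNS (log2) against the mean level of each gene over both conditions (log2 intensity), 1 point per gene, coloured by class, with dashed lines at 0.5 and -0.5. Genes far above SNS (688) outnumber genes far below (123), and the near genes crowd at low levels.

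The distances of the other conditions from SNS were of the same size. BYS minus SNS gave 5222 called genes (30.6%) and BNS minus SNS gave 5439 (31.9%). All 3 comparisons share the same SNS samples. The direct test of BYA against BYS, which asks whether ACTH-treated rats sat at another distance from SNS than saline-treated rats with spasms, called no gene in limma's test, with 1386 of 17075 genes at an unadjusted p under 0.05. The methods' t-test put 864 genes past its unadjusted threshold and none after Benjamini-Hochberg adjustment. Without BYA replicate 3, 25 genes were called in BYA against BYS (0.146%), 9 higher and 16 lower in BYA. Without BYA replicates 3 and 4, 209 were called, 20 higher and 189 lower. BYA was then replicates 1 and 2 alone, which shared 1 array, so the array and the treatment cannot be told apart there.

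Immediate early genes were the list with the highest median difference from SNS. These genes encode transcription factors and synaptic proteins that neurons make within minutes of strong activity. Of the 21 listed, 18 were measured, 5 rose, none fell and 13 were not called, a called share of 27.8% against 34.2% over all genes. The list's median difference was 0.56 in BYA minus SNS, 0.28 in BYS minus SNS and -0.09 in BNS minus SNS, beside medians over all genes of -0.07, -0.07 and -0.08. Without replicate 3 the count of risen genes was 10 and the median 0.83. The median distance of the list from SNS was 0.75 in BYA replicate 1, 0.23 in replicate 2, -0.09 in replicate 3 and 1.26 in replicate 4, so the list was above control in 3 of the 4 BYA samples and not in the uncertain one.

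The upstream sequences of 3 of the risen genes are shown because activity is known to reach genes of this class through short response elements near the start. Each is the 250 bases before the start of transcription in RefSeq's GRCr8 rat assembly, written 5′ to 3′ on the gene's own strand. Capitals mark the core of the cyclic AMP response element, TGACG or its reverse complement CGTCA, bound by CREB, and the CArG box, bound by serum response factor.
Egr1, chr18:26736828-26737077 (+ strand): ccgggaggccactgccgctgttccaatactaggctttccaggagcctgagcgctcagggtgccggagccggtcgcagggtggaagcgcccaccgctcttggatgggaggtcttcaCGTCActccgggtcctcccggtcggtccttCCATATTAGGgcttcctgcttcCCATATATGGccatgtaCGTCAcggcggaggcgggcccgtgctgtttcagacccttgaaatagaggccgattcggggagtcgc
Egr2, chr20:21054442-21054691 (- strand): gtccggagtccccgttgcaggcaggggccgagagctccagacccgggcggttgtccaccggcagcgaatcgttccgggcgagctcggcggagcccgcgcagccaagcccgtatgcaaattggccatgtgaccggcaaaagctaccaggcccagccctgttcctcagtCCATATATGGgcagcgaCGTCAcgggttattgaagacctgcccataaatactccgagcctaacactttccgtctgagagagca
Nr4a1, chr7:134259888-134260137 (+ strand): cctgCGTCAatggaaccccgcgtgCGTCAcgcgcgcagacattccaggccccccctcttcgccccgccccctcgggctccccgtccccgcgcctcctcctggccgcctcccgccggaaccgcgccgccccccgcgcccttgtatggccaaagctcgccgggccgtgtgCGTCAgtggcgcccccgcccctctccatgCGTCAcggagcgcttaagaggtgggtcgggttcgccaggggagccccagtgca
Egr1 held 2 CArG boxes, starting at -105 and -83, and 2 cores. Egr2 held 1 CArG box at -83 with a core at -66, and Nr4a1 held 4 cores and no CArG box. Of the 13 immediate early genes with a sequence, 9 held a core (69.2%), against 18.2% of all 33469 rat promoters of this length. Either strand was searched, and the core lies inside the full element. The full element TGACGTCA was in 3 of the 13, Btg2, Ier2 and Jund, none of them called with all samples. A CArG box was in 2 of the 13 (15.4%), against 1.5% of all promoters. A match is a stretch of letters and no measure of binding.

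Egr2, an early growth response transcription factor, had the lowest adjusted p of the list. Its level was 7.40, 7.56, 7.59 and 7.49 in the 4 SNS samples and 8.74, 8.08, 7.74 and 9.39 in BYA replicates 1 to 4. The groups did not overlap, but replicate 3 lay just above the SNS range. No SNS sample was well above background, so in the group means BYA was at least 1.97-fold higher. Here and below such a fold compares group means and leaves out the spread of the samples. The fitted difference of Egr2 was 0.98 ± 0.245 (SE, adjusted p = 0.00568). Egr1 was at 9.62, 9.76, 10.09 and 9.85 in SNS and at 11.24, 11.13, 9.86 and 12.20 in BYA. Replicate 3 lay inside the SNS range and the other 3 BYA samples at least 1 above it. The difference was 1.28 ± 0.389 (adjusted p = 0.0174), 1.69 without replicate 3 (adjusted p = 0.00164) and 0.92 without replicate 4, where the call was lost.

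Egr4, of the same family, was at 8.64, 8.93, 8.76 and 8.39 in SNS and at 10.47, 10.28, 8.97 and 11.11 in BYA, a difference of 1.53 ± 0.441 (adjusted p = 0.0132). The call was lost without replicate 4, at 1.24. Nr4a1, an orphan nuclear receptor, was at 10.12, 10.14, 10.23 and 10.43 in SNS and at 11.10, 10.84, 10.44 and 11.63 in BYA. Its difference of 0.77 ± 0.209 (adjusted p = 0.00922) was called whichever single sample was left out. Fos, the AP-1 subunit used most widely as a marker of neuronal activation, had 8.45, 9.02, 9.16 and 9.46 in SNS and 10.66, 10.46, 8.75 and 11.02 in BYA. The other 3 BYA samples exceeded every SNS sample, and replicate 3 lay within the SNS range. The Fos difference of 1.20 ± 0.443 (adjusted p = 0.044) was 1.67 without replicate 3 (adjusted p = 0.00423), and it lost its call without any 1 of the 4 SNS samples or of BYA replicates 1, 2 and 4.

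Called only without replicate 3 were Junb, an AP-1 subunit (1.62), Nr4a3, a nuclear receptor (0.90), Fosb, another AP-1 subunit (0.86), Ier2 (0.79) and Arc, a synaptic protein of plasticity (0.71). Near the control level were Jund, the AP-1 subunit present without stimulation, at 0.08, Ier5 at -0.04 and Homer1, a postsynaptic scaffold, at -0.25. In BYS the differences from SNS were 0.50 for Egr2, 0.49 for Egr1, 1.07 for Egr4, 0.26 for Nr4a1 and 0.85 for Fos, none of them called. BNS minus SNS lay between -0.16 and 0.34 for these 5 genes. The 5 genes did not differ between BYA and BYS, with or without replicate 3, at an adjusted p under 0.05. The lowest unadjusted p was that of Nr4a1, 0.0244 for a difference of 0.51.

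**Figure D2:**
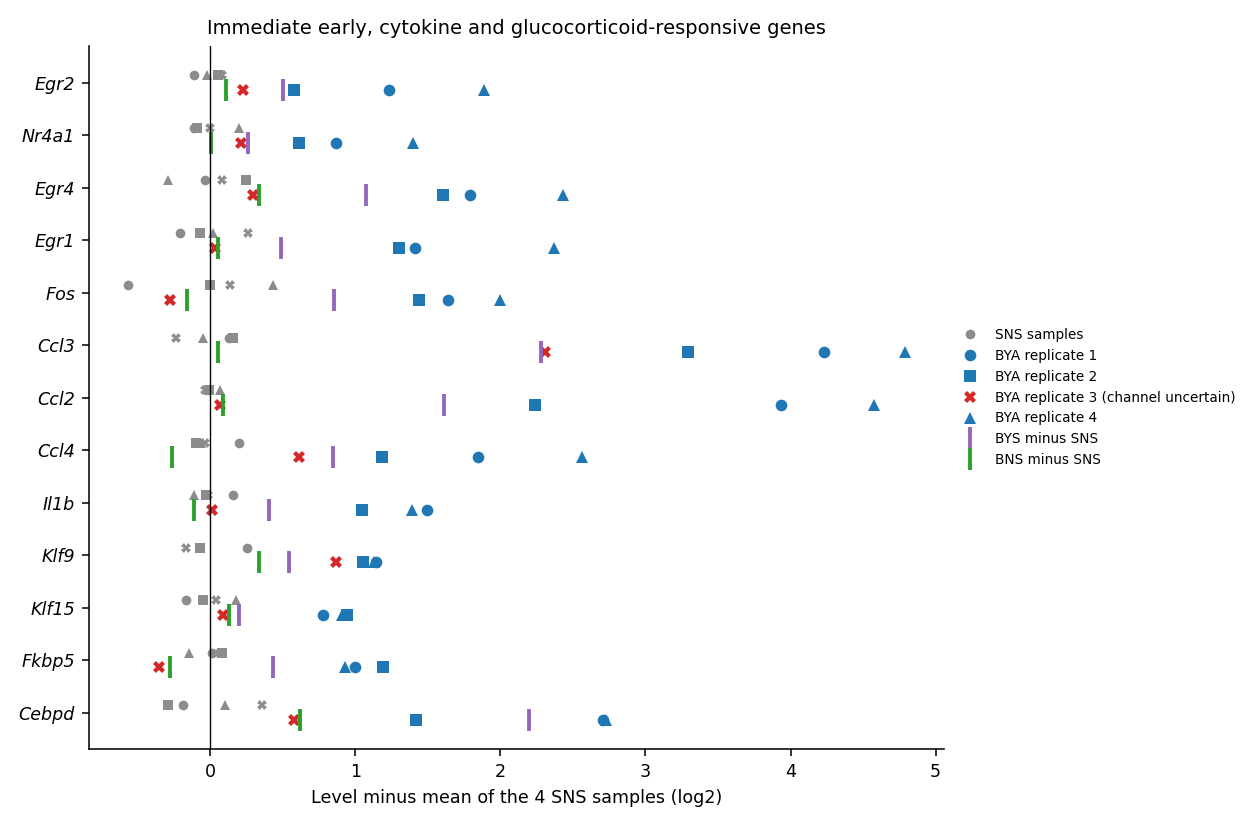
Level of 13 genes in each SNS (grey) and BYA sample, minus the SNS mean (log2), with BYA replicate 3 as a red cross and the mean differences of BYS and BNS from SNS as purple and green bars. BYA replicates 1, 2 and 4 lie above every SNS sample for all 13 genes, and replicate 3 lies at or near the SNS samples for most of them and above them for Ccl3, Ccl4 and Klf9.

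Of 32 listed genes of cytokines and the NF-kB pathway 23 were measured, 8 rose, 1 fell and 14 were not called, a called share of 39.1% beside 34.2% over all genes. Of the 23, 1 rose with median scaling, as did 1 of the 9 whose probes were well above background in all 20 samples. Ccl2, Ccl4 and Il1b, well above background in no SNS sample, passed the filter on dim probes through another condition. BYA replicate 3 was the lowest BYA sample for Ccl3 and for these 3 genes. The list median was 0.17 in BYA minus SNS, 0.33 in BYS minus SNS and 0.02 in BNS minus SNS, and -0.21 in BYA when probes had to be well above background in all 20 samples. The largest difference of the list was that of Ccl3, a chemokine that draws macrophages and is made by microglia. Its level was 7.80, 7.82, 7.43 and 7.62 in SNS and 11.90, 10.96, 9.98 and 12.46 in BYA. All 4 BYA samples lay at least 2 above the SNS samples, 1 of which was well above background. The difference of 3.66 ± 0.798 (adjusted p = 0.00231) was 4.13 without replicate 3. In BYS the Ccl3 difference was 2.28 (adjusted p = 0.0385), and in BNS it was 0.05.

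Ccl2, the monocyte chemokine, was at 7.38, 7.38, 7.36 and 7.46 in SNS, none well above background, and at 11.33, 9.64, 7.46 and 11.97 in BYA. Replicate 3 was at the SNS level and the other 3 BYA samples were not. In the group means BYA was at least 6.42-fold higher. The fitted difference was 2.70 (adjusted p = 0.0191), 3.65 without replicate 3, and 2.27 and 2.03, no longer called, without replicate 1 or 4. Ccl4, a close relative of Ccl3, was at 7.58 to 7.88 in SNS and at 9.53, 8.87, 8.29 and 10.24 in BYA, at least 2.93-fold higher (adjusted p = 0.0162, lost without replicate 4). Il1b, which encodes the inflammatory cytokine interleukin 1 beta, was at 7.48 to 7.75 in SNS and at 9.09, 8.63, 7.61 and 8.98 in BYA. In the group means it was at least 1.98-fold higher (adjusted p = 0.0125, lost without replicate 1), though replicate 3 lay within the SNS range.

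Smaller rises were seen for Il1a, encoding interleukin 1 alpha (0.72, lost without any 1 of BYA replicates 1, 2 and 4 or of SNS replicates 1, 3 and 4, at 0.47 to 0.73), Myd88, an adaptor of interleukin 1 and Toll-like receptors (0.62), Tgfb2 (0.46) and the chemokine Cxcl12 (0.43). Tnfrsf1b, a receptor of tumour necrosis factor, fell by 0.36. Tnf itself was called only without replicate 3, at 1.26. Ccl7, a chemokine outside the list that was chosen after its values were seen, was at 7.42 to 7.78 in SNS, none well above background. It was at 10.01, 8.74, 8.05 and 10.96 in BYA, at least 3.75-fold higher. It was one of the 25 genes called in BYA against BYS without replicate 3 (adjusted p = 0.0387). BYS averaged 7.97, near the SNS level, so the size of that difference is not given.

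Of 32 listed genes of the glucocorticoid receptors and response, 30 were measured, 6 rose, 2 fell and 22 were not called, a called share of 26.7% beside 34.2% over all genes. The list median was 0.24 in BYA minus SNS, 0.24 in BYS minus SNS and -0.03 in BNS minus SNS, and 0.44 in BYA without replicate 3, where 8 rose and 1 fell. Klf9, a Kruppel-like transcription factor induced by glucocorticoids in neurons, was at 11.16, 10.84 and 10.74 in SNS replicates 1 to 3, its spot in replicate 4 having been marked as an outlier, and at 12.05, 11.96, 11.78 and 12.04 in BYA. All 4 BYA samples, replicate 3 included, were above the SNS samples. The difference of 1.07 ± 0.172 (adjusted p = 0.000241) compares with 0.54 in BYS (adjusted p = 0.0256) and 0.33 in BNS. The direct difference BYA minus BYS was 0.53, with an unadjusted p of 0.00544 and no call after adjustment. With the scanner's own processed signal the Klf9 difference from SNS was 0.49 and not called.

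Klf15, a Kruppel-like factor of amino acid and lipid metabolism, was at 10.13, 10.25, 10.34 and 10.48 in SNS and at 11.08, 11.24, 10.39 and 11.21 in BYA, a difference of 0.68 ± 0.163 (adjusted p = 0.00433). Replicate 3 lay within the SNS range. Fkbp5, the co-chaperone that restrains the glucocorticoid receptor, was at 11.30, 11.37, 11.36 and 11.14 in SNS and at 12.29, 12.48, 10.94 and 12.22 in BYA. Replicate 3 was below every SNS sample and the other 3 BYA samples were above all of them. The difference was 0.69 ± 0.244 (adjusted p = 0.0367), and 1.03 without replicate 3 (adjusted p = 0.000327). Leaving out any 1 of BYA replicates 1, 2 and 4 or of SNS replicates 1, 2 and 4 ended the call, with values of 0.54 to 0.72. In BYS Fkbp5 was 0.43 above SNS and in BNS it was -0.28, neither called.

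Cebpd, a C/EBP transcription factor that responds to glucocorticoids and to inflammation alike, was at 10.08, 9.98, 10.63 and 10.37 in SNS and at 12.98, 11.69, 10.85 and 13.00 in BYA. Its difference was 1.86 ± 0.568 (adjusted p = 0.0178), beside 2.19 in BYS and 0.62 in BNS, and the call was lost without BYA replicate 1 (1.61) or 4 (1.50). Sult1a1, a sulfotransferase, rose by 1.41, with 1.46 in BYS and 1.62 in BNS, all called. Tsc22d1 rose by 0.55, but its probes disagreed, since the brighter of them gave -0.16. The clock gene Per1, itself known to be induced by glucocorticoids, fell by 0.48 and Mertk, a phagocytic receptor, fell by 0.59. Of 21 other settings, Per1 lost its call in 6 and Mertk in 10. No gene of the list was called lower with median scaling. Nfkbia, the NF-kB inhibitor, and Errfi1, an inhibitor of the EGF receptor, were called only without replicate 3 (0.88 and 0.81). Tsc22d3, the glucocorticoid-induced leucine zipper, was 0.98 above SNS with an adjusted p of 0.131. The receptors themselves were not called. Nr3c1 was near SNS at 0.22 (adjusted p = 0.0667), and Nr3c2 was at -0.12 (adjusted p = 0.75). The palindromic glucocorticoid response element was in none of the 26 promoters of the list that could be read, against 0.373% of all promoters, which says only that its letters are not within 250 bases of the start.

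**Figure D3:**
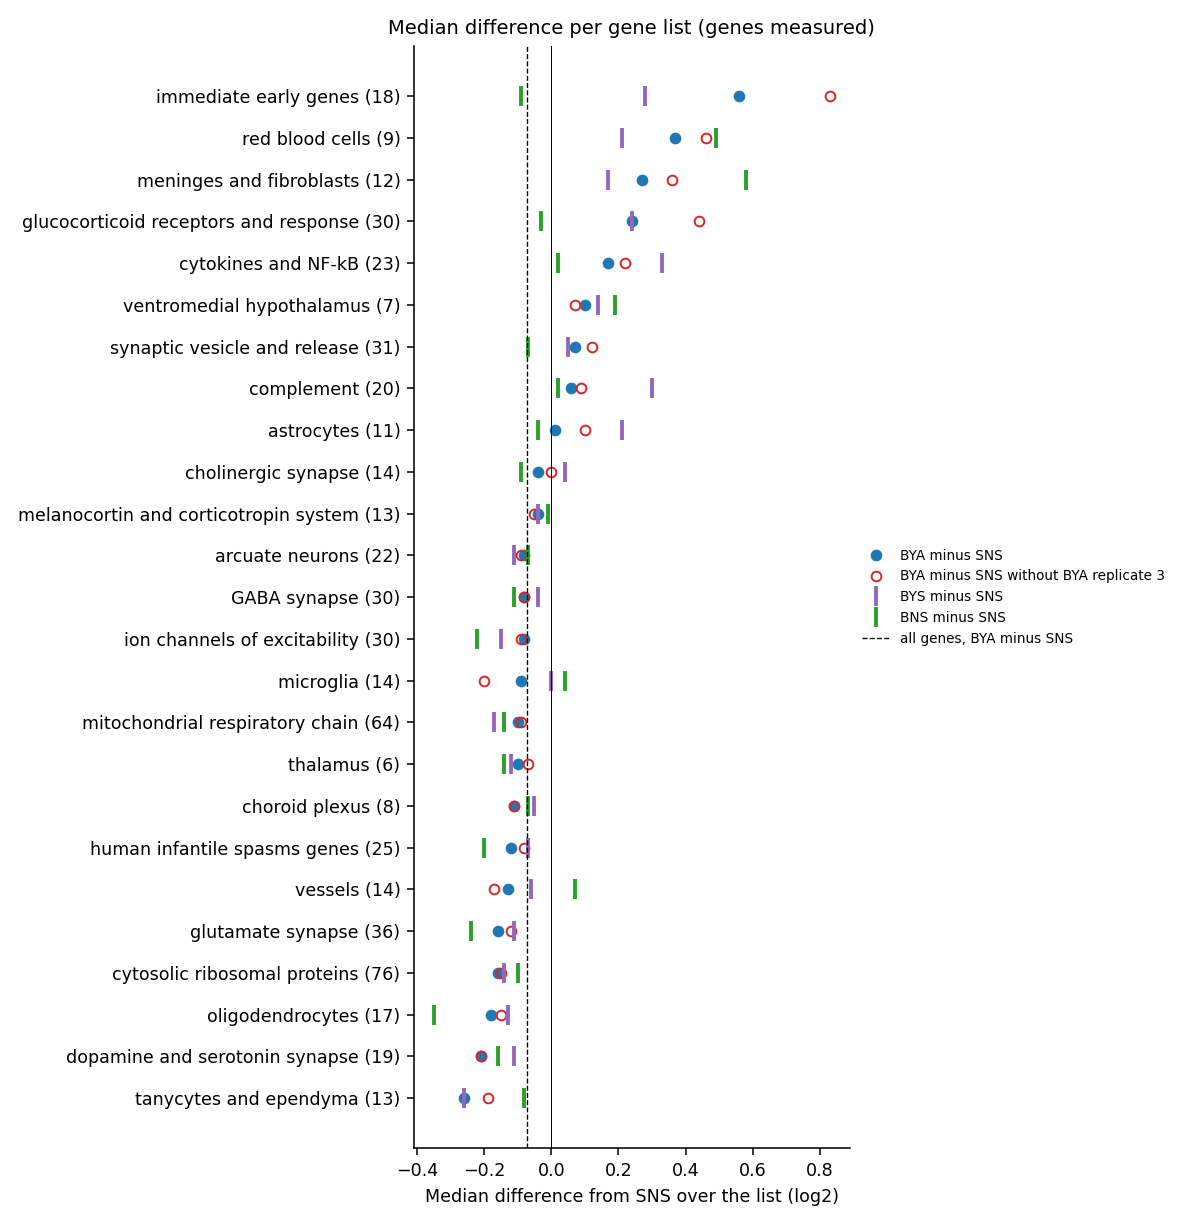
Median difference from SNS (log2) over the measured genes of each list drawn. Shown are BYA with all samples (blue), BYA without replicate 3 (red circles), BYS (purple) and BNS (green). The dashed line is the median over all genes. Of the lists drawn, the immediate early genes stand highest in BYA at 0.56 and the tanycyte and ependymal genes lowest at -0.26. The pituitary (-0.27), magnocellular (-0.26) and Y-linked (0.16) lists, with few genes measured, are not drawn.

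Of 13 melanocortin and corticotropin genes measured of 18 listed, 4 were called (30.8%, beside 34.2% over all genes) and 2 were near SNS. Pomc was at 14.37, 14.63, 15.10 and 14.76 in SNS and at 14.59, 14.62, 13.93 and 14.41 in BYA. The groups overlapped, and the difference of -0.33 ± 0.271 was not called (adjusted p = 0.365). Mc4r, the receptor through which melanocortins restrain feeding, was at 7.97, 7.97, 8.06 and 8.07 in SNS and at 8.49, 8.88, 8.32 and 8.38 in BYA, a rise of 0.50 ± 0.129 (adjusted p = 0.00684). The Mc4r difference was 0.51 in BYS and 0.40 in BNS. Mc4r was well above background in 2 SNS and 3 BYA samples, so the size of its rise is uncertain. Cpe, the carboxypeptidase that trims peptide hormones, rose by 1.00 (adjusted p = 0.000826) and the convertase Pcsk2, which cuts prohormones such as that of Pomc, by 0.56. Crhr1, the receptor of corticotropin-releasing hormone, fell by 0.58. Crh itself was at -0.24 (adjusted p = 0.657), Mc3r at 0.07 (adjusted p = 0.85), and Agrp at 0.53 (adjusted p = 0.304). The directions of Crh and Mc3r turned under other settings. Mc2r, the adrenal ACTH receptor, was not among the genes measured here.

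The arcuate neuron markers were present in all 8 samples. Their summed level on the log2 scale was 16.88 to 17.82 in SNS and 17.19 to 17.42 in BYA, so the groups overlapped. Of 22 measured genes 1 was called (4.55%, beside 34.2% over all genes), the dopamine transporter Slc6a3, at 0.46 (adjusted p = 0.0491). That call was lost without replicate 3 (0.38), with the replicate number as a block, with a random block for the array and with median scaling. In bulk tissue, fewer cells of a type and less RNA per cell cannot be told apart. Npy, at 14.86, 15.14, 15.61 and 15.25 in SNS and 14.55, 14.77, 14.75 and 14.96 in BYA, was lower by 0.46 without passing the test (adjusted p = 0.198). Kiss1, which encodes kisspeptin, was lower by 0.38 (adjusted p = 0.184). Markers of cells around the nucleus had 1 call per list. Of 2 magnocellular genes Oxt, oxytocin, fell by 0.58 (list median -0.26). Of 6 thalamic genes the factor Tcf7l2 fell by 0.60 (list median -0.10). Of 8 choroid plexus genes the folate receptor Folr1 fell by 0.91 (list median -0.11). Of 7 ventromedial genes Nr2f2 rose by 1.41 (list median 0.10). The called shares were 50%, 16.7%, 12.5% and 14.3%, beside 34.2% over all genes. These values stand beside the neuronal results as a measure of how alike the dissections were, and their part was not tested.

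Complement is the system that the other drug of the study blocks, at the receptor C5ar1. That receptor was not well above background in any BYA sample and in 1 SNS sample, with a fitted difference of -0.16 (adjusted p = 0.367). Of 20 complement genes measured of 24 listed, 5 rose and 1 fell (30% called, beside 34.2% over all genes), with a list median of 0.06 in BYA, 0.30 in BYS and 0.02 in BNS. Serping1, the inhibitor of the first complement proteases, was at 9.72, 9.65, 10.06 and 9.81 in SNS and at 11.64, 10.96, 11.15 and 11.88 in BYA. All BYA samples were above all SNS samples, a difference of 1.60 ± 0.25 (adjusted p = 0.000152). Serping1 was 1.77 above SNS in BYS and 1.61 in BNS. Among the others, C4a rose by 0.84, properdin (Cfp) by 0.60 and Cd46 by 0.46, and Cd59b, which blocks the membrane attack complex, fell by 0.46.

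C1qa, a chain of the first complement component made by microglia, was one of the genes that ACTH-treated rats held near control while BYS rats did not. Its level was 12.47, 12.15, 12.32 and 12.20 in SNS and 12.30, 12.13, 12.10 and 12.20 in BYA, and 12.72 ± 0.24 (SD, n = 4) in BYS. BYA minus SNS was -0.10 with an interval of -0.33 to 0.12, and BYS minus SNS was 0.43 (adjusted p = 0.00639). The direct difference BYA minus BYS was -0.54, with an unadjusted p of 0.000101 that did not survive adjustment. Of 14 microglial markers measured, 1 rose and 1 fell (14.3% called, beside 34.2% over all genes). The fall was that of P2ry12, the purinergic receptor of resting microglia, by 0.72. The summed level of the 14 markers was 14.98 to 15.20 in SNS and 15.03 to 15.27 in BYA. Cx3cr1, the fractalkine receptor, was at 12.06, 12.15, 11.87 and 11.88 in SNS and at 11.45, 11.76, 11.94 and 11.71 in BYA, at -0.27 and not called (adjusted p = 0.195), with -1.27 in BYS and -0.78 in BNS. Without replicate 3, Cx3cr1 was 0.88 higher in BYA than in BYS (adjusted p = 0.0427).

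Naming asked also that probes be well above background in all BYA and SNS samples, with no such condition on BYS. Under these conditions 42 genes were higher and 348 lower in BYS than SNS while near SNS in BYA. Since both differences use the same SNS samples, and since a gene past the threshold in one and near in the other need not differ between BYA and BYS, these are counts and no test. The 5 with the largest fall in BYS were Pnmt, which makes adrenaline, Mb (myoglobin), Car14, a carbonic anhydrase, Best2, a chloride channel, and D2hgdh, a mitochondrial dehydrogenase. Pnmt was at 10.12, 10.13, 10.28 and 9.98 in SNS and at 9.86, 10.08, 9.85 and 10.02 in BYA, and 9.34 ± 0.30 in BYS. BYA overlapped SNS, and BYS lay lower by 0.78. Best2 was at 9.56, 9.73, 9.62 and 9.58 in SNS and at 9.37, 9.90, 9.12 and 9.77 in BYA, with -0.69 in BYS and -1.18 in BNS. It was the only one of the 5 that was also called in BYA against BYS without replicate 3 (0.70, adjusted p = 0.0387). The 5 with the largest rise in BYS were Mpdz, Srp72, Top1, C1qa and Lrrfip1, with BYS minus SNS of 0.42 to 0.51 and BYA minus SNS of -0.10 to 0.29. The 2 probes of Lrrfip1 disagreed, at 0.80 and -0.21, and without replicate 3 neither Lrrfip1 nor Mb met the condition for near. The synaptic lists held near genes in BYA too, 11 of 30 for GABA, 13 of 36 for glutamate and 14 of 30 for ion channels, beside 39% over all genes.

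The GABA synapse list had 4 rises and 3 falls among 30 genes measured (23.3% called, beside 34.2% over all genes), at a median of -0.08. Gabrb1, a GABA-A receptor subunit, was at 11.22 and 11.17 in SNS replicates 1 and 2, the spots of replicates 3 and 4 being outliers, and at 12.42, 13.35, 12.85 and 13.37 in BYA. Every BYA sample was over 1 above both SNS values, which came from 1 array. The difference of 1.80 ± 0.19 (adjusted p = 6.1e-06) stood beside 1.85 in BYS and 1.63 in BNS. Gad2, which makes GABA, rose by 0.74 and Trak2 by 0.35. The receptor subunit Gabrq fell by 0.60. Gabarapl2, of receptor and autophagy traffic, was called at -0.60, but its 3 probes disagreed, at -0.85, -0.34 and 0.22.

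Of 31 genes of vesicle release measured, 6 rose, 1 fell and 24 were not called (22.6% called, beside 34.2% over all genes). Syt1, the calcium sensor of release, was at 7.91, 8.03, 8.00 and 8.05 in SNS and at 9.16, 8.85, 8.62 and 9.10 in BYA, a difference of 0.94 ± 0.125 (adjusted p = 3.47e-05), beside 0.63 in BYS and 0.48 in BNS. Vamp2, the vesicle SNARE, rose by 1.46, although SNS replicate 2 lay at 10.97 against 12.45 to 12.93 in the others. Nrxn2, a presynaptic adhesion protein, rose by 0.78, Nlgn3 by 0.48, the active zone scaffold Pclo by 0.47 and Nrxn3 by 0.34, and Vamp1 fell by 0.32. With median scaling 2 of the 31 rose and none fell. Of 36 glutamate synapse genes 3 rose and 2 fell (13.9% called, beside 34.2% over all genes). The AMPA receptor subunit Gria4 (0.46), the glutamine transporter Slc38a2 (0.58) and the NMDA receptor subunit Grin2b (0.20) rose. The kainate receptor subunit Grik5 fell by 0.41 and the vesicular transporter Slc17a6 by 0.45. None of the 36 was called with median scaling. No ion channel of the list rose and 4 of 30 fell (13.3% called, beside 34.2% over all genes). The falls were those of the sodium channel Scn3a (0.75), the potassium channel Kcnc1 (0.47) and the pacemaker channels Hcn4 (0.44) and Hcn3 (0.36). With the probe of highest mean level for each gene 2 rose and 6 fell, and with median scaling 1 fell.

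Among 14 cholinergic genes 3 rose and 1 fell (28.6% called, beside 34.2% over all genes). The nicotinic subunit Chrna4 rose by 0.94 and Chrnb2 fell by 0.30. Butyrylcholinesterase (Bche), well above background in no SNS sample and in 2 BYA samples, was at least 1.6-fold higher. Of the 6 genes whose probes were well above background in all 20 samples, none was called. In the dopamine and serotonin list 5 of 19 genes fell and 1 rose (31.6% called, beside 34.2% over all genes). Without replicate 3, 2 fell and 1 rose, and none was called with a random block for the array or with median scaling. Among the falls were those of Htr2c (0.49), Maob (0.42), Htr2a (0.37) and Ddc (0.29), which receive, break down or make these transmitters. Of these 4, Ddc was called without replicate 3 and the others were not. Of 25 measured genes in which variants cause infantile spasms in people, 4 rose and 4 fell (32% called, beside 34.2% over all genes). Phactr1, a regulator of actin, was at 11.38, 11.24, 10.96 and 10.63 in SNS and at 12.50, 12.33, 11.97 and 12.10 in BYA, a rise of 1.18 ± 0.162 (adjusted p = 4.76e-05) that was 1.20 in BYS and 0.95 in BNS. Plcb1 rose by 0.44, and Slc35a2 (0.56), Gnb1 (0.53), Cyfip2 (0.40) and Aldh7a1 (0.36) fell.

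Of the large housekeeping groups, 12 cytosolic ribosomal protein genes rose and 16 fell among 76, and 9 respiratory chain genes rose and 18 fell among 64. Their called shares of 36.8% and 42.2% lay beside the 34.2% of all genes. The excess of falls was not kept with median scaling. There 3 ribosomal protein genes rose and 2 fell, and 5 respiratory chain genes rose and none fell. Tanycyte and ependymal markers, the cells that line the third ventricle, had 5 falls and 1 rise among 13 (46.2% called, beside 34.2% over all genes), Foxj1, the regulator of cilia, falling by 0.58 and Drc12 by 0.69, while Rarres2 rose by 0.61. None of the 13 was called with a random block for the array, and 1 was, lower, with median scaling. Of 14 vessel markers 4 fell and 2 rose (42.9% called, beside 34.2% over all genes). Among the falls were the tight junction gene Cldn5 at -0.59 and the pericyte receptor Pdgfrb at -0.60. The rises were those of vitronectin (Vtn) and of the pericyte gene Rgs5 (0.62). With median scaling 2 of the 14 vessel markers rose and none fell.

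Of 9 red blood cell genes measured, 2 were called, both higher (22.2%, beside 34.2% over all genes). Hbe2, an embryonic globin gene outside that list, was at 12.81, 12.73, 13.62 and 13.30 in SNS and at 15.64, 14.88, 14.91 and 14.82 in BYA, a difference of 1.95 ± 0.204 (adjusted p = 2.55e-06) beside 1.56 in BYS and 2.20 in BNS. Hba-a1 rose by 0.51 and Alas2, the erythroid enzyme of haem synthesis, by 0.98. The summed level of the 9 red blood cell genes measured was 17.39 to 17.62 in SNS and 18.29, 17.45, 17.57 and 17.46 in BYA replicates 1 to 4, so that replicate 1 stood above every SNS sample and replicates 2 to 4 lay within the SNS range. The meningeal list had a median of 0.27 and 1 rise among 12 genes (8.33% called, beside 34.2% over all genes). The rise was that of Aldh1a2, well above background in no SNS sample. The part of blood and meninges in the other differences was not tested.

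The 10 highest named genes differed from SNS by 1.48 to 2.40. They were called with and without replicate 3, did not overlap between groups, and came from 794 genes that met these conditions. Besides Hbe2, Cebpd and Serping1 they were RatNP-3b, a defensin, Herpud1, of the stress response of the endoplasmic reticulum, Slc25a4, the mitochondrial ADP/ATP carrier, Rtn1, a reticulon, Bcat1, an aminotransferase of branched-chain amino acids, Ctsl, a lysosomal protease, and Mknk2, a kinase of the translation factor eIF4E. Herpud1 was at 9.80, 10.06, 10.27 and 10.45 in SNS and at 12.01, 11.81, 11.56 and 12.01 in BYA. The 4 BYA samples were at least 1 above every SNS sample. Its difference was 1.71 ± 0.134 (adjusted p = 1.94e-07), with 1.86 in BYS and 1.64 in BNS. Slc25a4 was likewise 1.62 in BYA, 1.61 in BYS and 1.75 in BNS, and Ctsl was 1.54, 1.66 and 1.69. For Rtn1 the values were 1.61, 1.58 and 1.60, and for Bcat1 1.55, 1.41 and 1.61. Cebpd had the smallest BNS difference of the 10 genes, 0.62.

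RatNP-3b had the largest rise of the 10 named higher genes, from 9.34, 9.55, 9.59 and 9.15 in SNS to 11.79, 11.82, 11.76 and 11.85 in BYA (2.40 ± 0.188, adjusted p = 1.94e-07), with 2.53 in BYS and 2.09 in BNS. Its single probe of 60 bases, placed by the array file at chr8:124665843-124665902 (rn4, + strand), is a simple repeat of 41 a, 18 g and 1 t. The first 30 bases are shown because they bear on what the value measures.
RatNP-3b probe: aagaagaagaagaagaagaagaagtagaag
Such a stretch may take up many transcripts, so the value is that of the probe and uncertain as that of the gene. Mknk2 was called although its SNS samples were split by array, at 10.24 and 10.31 in replicates 1 and 2 and at 12.53 and 12.38 in replicates 3 and 4, with 12.74 to 13.02 in BYA.

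The 10 lowest named genes, from 1255 that met the conditions, differed from SNS by -1.90 to -1.15. They were Prpf8 and U2af1, of the spliceosome, Rplp0l1, a ribosomal protein copy, Arl6ip4, Flrt3, an adhesion protein of axons, Plk1, a kinase of cell division, Pmp22, a myelin protein, Abcg1, a cholesterol exporter, St7l, and Uso1, a vesicle tether of the Golgi. Prpf8 was at 13.53, 13.66, 13.61 and 13.33 in SNS and at 10.42, 10.02, 13.17 and 12.91 in BYA. Replicates 1 and 2, which shared 1 array, were some 3 below SNS, and replicates 3 and 4 under 1 below. The difference of -1.90 ± 0.526 (adjusted p = 0.0116) lost its call with the scanner's processed signal (-1.38) and when no samples but BYA and SNS were fitted. The same split was seen in all 10 genes, each with replicates 1 and 2 both lower than replicates 3 and 4. It held for 40 of 59 genes called lower by at least 1 (67.8%), 31.8% of all called lower genes and 20.2% of all genes. Among the 10 highest genes it held for 1, and replicates 1 and 2 were both higher than 3 and 4 in 2.

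Plk1 was at 9.48, 9.35, 9.50 and 9.77 in SNS and at 7.36, 8.14, 8.71 and 8.71 in BYA, a difference of -1.29 ± 0.202 (adjusted p = 0.000141), beside -0.39 in BYS and -0.32 in BNS, neither called. With the scanner's processed signal it was -0.50 and not called. Without replicate 3 Plk1 was also lower in BYA than in BYS, with a difference of -1.10 (adjusted p = 0.0351). Flrt3 was at 10.73, 11.20, 10.67 and 11.09 in SNS and at 8.81, 9.02, 10.23 and 10.31 in BYA (-1.33 ± 0.269, adjusted p = 0.00132). U2af1 was at 13.94 to 14.16 in SNS and at 11.81, 12.90, 13.45 and 13.50 in BYA (-1.15 ± 0.237, adjusted p = 0.00149). The BYS differences were -0.61 for Prpf8, -0.44 for Flrt3 and -0.44 for U2af1, none called.

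**Figure D4:**
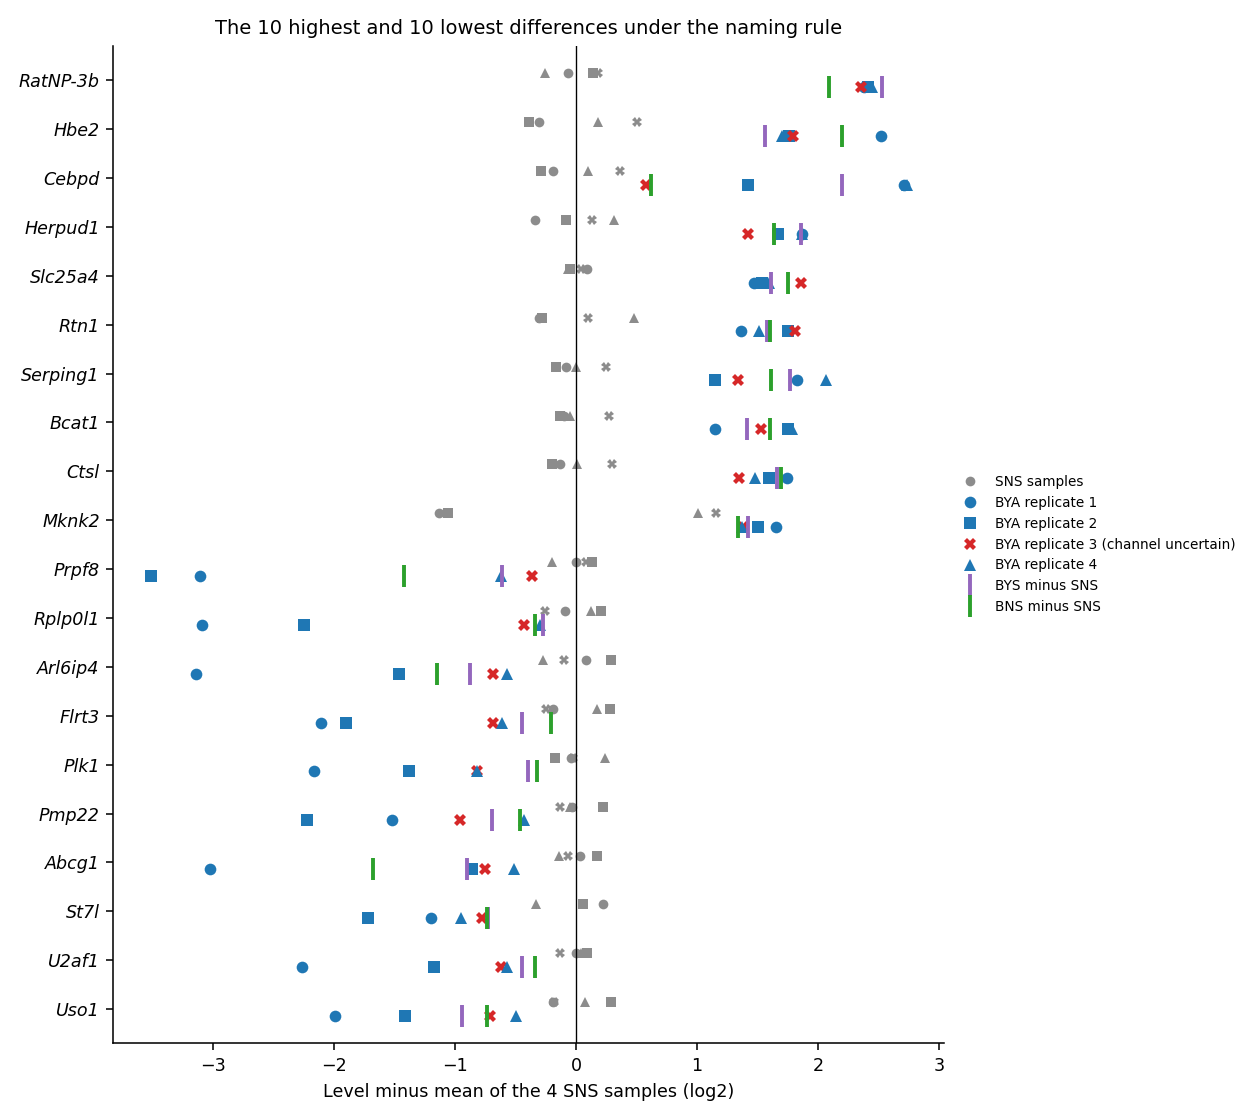
Level of the 20 named genes in each SNS (grey) and BYA sample, minus the SNS mean (log2), with BYA replicate 3 as a red cross and BYS and BNS mean differences as purple and green bars. Apart from Cebpd, the higher genes lie between 1 and 3 in every BYA sample, while in the lower genes BYA replicates 1 and 2 lie furthest down and replicates 3 and 4 closer to SNS.

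Rats of BYA and BYS differed by label in the treatment alone, ACTH or saline, though not in that alone by array, since each lay on slides of its own. The genes of this comparison without replicate 3 that are given here, other than Plk1, Best2 and Cx3cr1, were chosen after their values were seen. Sik1, a salt-inducible kinase that cyclic AMP induces, was at 9.39, 9.31, 8.90 and 8.76 in SNS and at 10.27, 9.84, 9.45 and 10.25 in BYA. It was 0.86 ± 0.169 above SNS (adjusted p = 0.00105), beside 0.26 in BYS and 0.22 in BNS, and without replicate 3 it was 0.79 above BYS (adjusted p = 0.0427). Csn1s1, a casein gene, was called above BYS in the same fit (adjusted p = 0.0112). It was well above background in 2 of the 4 BYA samples and averaged 7.93 in BYS, so the size is not given.

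Mgat2, a glycosyltransferase of the Golgi, was at 9.28, 9.51, 8.98 and 9.31 in SNS and at 6.81, 6.80, 8.66 and 7.24 in BYA, with -0.13 in BYS and -0.05 in BNS. Replicates 1, 2 and 4 lay about 2 below the SNS samples and replicate 3 just below them. Without replicate 3 Mgat2 was called lower in BYA than in BYS (adjusted p = 0.000148), with 1 of the 4 BYA samples well above background, so the size of the difference is not given. Metrnl, a secreted neurotrophic factor, was at 10.25, 10.44, 9.60 and 9.96 in SNS and at 7.25, 8.06, 9.52 and 7.83 in BYA (-1.90 ± 0.311, adjusted p = 0.000232). Pigl, an enzyme of GPI anchor synthesis, was at 10.22, 10.67, 10.41 and 10.24 in SNS and at 7.16, 7.67, 10.01 and 9.31 in BYA (-1.85 ± 0.406, adjusted p = 0.00245). Pigl was well above background in 2 of the 4 BYA samples, so its size is uncertain. In both, replicate 3 was the BYA sample closest to SNS. BYA replicates 1, 2 and 4 share 1 slide, which held no sample of another condition of the series. Over all genes, of the 5716 called without replicate 3 that it had a value for, 95% lay on the same side of the SNS mean in replicate 3, at a median distance of 0.39 against 0.56 in the other BYA samples. For BYA replicates 1, 2 and 4, left out in the same way, the shares were 97.5%, 97.6% and 96.9%. The genes were called against the same SNS samples that set the side, so these shares are a description and no test.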

How the data were processed

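Total RNA from the arcuate nucleus was labelled with Cy3 or Cy5 and hybridised to 2-colour Agilent rat arrays (44254 spots each), any 2 samples sharing an array without a common reference. The authors deposited the scanner output of Agilent Feature Extraction (10.7.3.1 per the labels, 11.5.1.1 per the file headers), in which mean and background intensities are not normalised. From the 20 channels, background was corrected by normexp with an offset of 50, control spots were dropped, spots marked as outliers (1.18%) were left missing, and the channels were quantile normalised on the log2 scale. Quantile normalisation forces equal distributions, so a shift of all genes could not be seen. Probes were kept when every sample of 1 condition had at least 0.5 of their spots well above background (19883 of 30367), and probes of a gene were averaged, giving 17075 genes. Names came from accessions where these matched (64.1% of probes) and otherwise from the file. Levels are log2 intensities, and arrays give no counting depth, so their number limits the precision.

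Differences were fitted in limma 3.58.1 (R 4.3.3) on all 20 samples with dye as covariate, two-sided, with Benjamini-Hochberg adjustment over all genes. SE and adjusted p refer to this fit, and SD to the samples of a condition. The samples were separate rats. The fitting code was tested on simulated data. The pathway and marker lists, the members and the rule for named genes were chosen with earlier results of these data known. The rule named the 10 largest rises and 10 largest falls that held in both fits without overlap of the groups, the 5 largest rises and 5 largest falls in BYS among genes near SNS in BYA, receptors and peptides of the ACTH system, and called list members. In 82 columns the files hold channels of another series, which were not used. Replicate numbers did not pair samples, since the correlations of same-numbered BYA and SNS deviations were 0.10, -0.16, -0.05 and -0.16. Promoters came from RefSeq (GRCr8), and probe positions from the array file (rn4). Some genes counted in the lists are not reported here by name.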

Additional observations from a re-analysis of the deposited data

Results flagged for a closer look

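Among 99 values of 4-sample conditions tested for a gap, 3 had a sample set apart from the rest, by 0.887, 0.86 and 0.933 of the range. Chance flags about 1 in 20 such values. All 3 were BYA replicate 1. Hbe2 was at 15.64 there against 14.82 to 14.91 in the other BYA samples, Abcg1 at 10.53 against 12.69 to 13.04, and the mineralocorticoid receptor Nr3c2 at 8.54 against 9.10 to 9.14.

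In 25 genes the distance from SNS differed between BYA without replicate 3 and BYS by the test of BYA minus BYS. With all 4 BYA samples the count was 0.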

How the results depend on the processing

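Slide and condition coincide, BYA replicate 3 is uncertain, and 4 rats a condition set the error. The BYA minus SNS count of 5838 genes was 1445 with median scaling, where 61.9% of calls were higher against 43% in the reported fit, 2148 with the scanner's processed signal, 3724 with a random block for the array, 3582 with BYA and SNS alone fitted, 603 within Cy3, 1349 within Cy5, and 1406 by the methods' t-test after Benjamini-Hochberg adjustment. It was 6077 with the replicate block, 8255 with the slide as a random block, and 4810 to 5719 leaving out 1 sample each. Without BYA replicate 3 the same settings gave 1491, 2189, 3911, 3225, 897, 1349 and 610 for the 5719, with 4292 to 5416 on leaving out a further sample and 5916 with the replicate block. The slide as a random block could not be fitted there. With all samples the correlation fitted within arrays was 0.367 and that within slides was -0.129. BYA alone lay on over 1 slide, so the slide block could not remove a difference between slides from BYA minus SNS. Near genes (6651) numbered 1526 at a width of 0.3, 14889 at 1, 1760 with median scaling, 3455 with the processed signal, 14568 with no filter, 3207 with probes well above background in all 20 samples, 2317 within Cy3, 3393 within Cy5, and 5817 to 6342 leaving out 1 sample each. BYA minus BYS (0 genes) gave 9 with the processed signal, 127 with the slide block, 2 with the replicate block, 209 without BYA replicates 3 and 4, 864 by the methods' t-test at its threshold, and 0 to 25 leaving out 1 sample each. BYS minus SNS (5222) was 1580, 2663 and 2671, and BNS minus SNS (5439) was 3216, 2581 and 2882, with median scaling, the processed signal and the array block. No other count in this paragraph moved by over 1.5 times with the replicate block. In the lists some calls changed with it, the rises being 0 in place of 1 for the arcuate markers and for dopamine and serotonin (Slc6a3), 3 in place of 4 for GABA, 7 in place of 5 for the immediate early genes and 7 in place of 6 for the glucocorticoid list.

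Some directions turned. With the processed signal C5ar1 was 0.16, Mc3r -0.43 and Nr3c1 -0.26. Without BYA replicates 3 and 4 C5ar1 was 0.04 and Mc3r -0.02. With the brightest probe Crh was 0.02 and Tsc22d1 -0.16. Within Cy3 Crh was 0.21 and Mc3r -0.24, and within Cy5 Nr3c2 was 0.06. Leaving out 1 sample each gave -0.74 to 0.10 for Crh, and Mc3r was -0.13, -0.07 and -0.06 without SNS replicate 1, SNS replicate 2 or BYA replicate 2. With median scaling the calls of Egr2 (1.07), Fos (1.21), Ccl2 (2.92), Ccl4 (1.63), Il1b (1.09), Klf15 (0.69), Fkbp5 (0.69) and Mc4r (0.51) were lost at these differences. The cause was not tested.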
